A study of Mus musculus with 6 samples.

Results

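The respiratory chain genes described here are the rows of the deposited table whose symbol begins with Nduf, Uqcr, Atp5 or mt-, begins with Cox followed by a digit from 4 to 8, or is Sdha, Sdhb, Sdhc, Sdhd, Cyc1 or Cycs. The rule uses names only, and it found 102 of the 10539 genes listed. Of these, 89 are encoded in the nucleus and 13 in the mitochondrial genome. By complex, 51 belong to complex I, 4 to complex II, 10 to complex III, 1 to cytochrome c, 18 to complex IV and 18 to complex V. The count for complex I includes 8 assembly factors named Ndufaf, and the count for complex V includes Atp5s, a gene named with the family that encodes no subunit of the enzyme.

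The respiratory chain passes electrons from NADH (complex I) and succinate (complex II) to ubiquinone, then through complex III, the small carrier cytochrome c and complex IV to oxygen. Complexes I, III and IV pump protons across the inner mitochondrial membrane, and complex V, the ATP synthase, uses the returning protons to make ATP. Most subunits are made from nuclear genes and imported, while a few core subunits of complexes I, III, IV and V are made inside the mitochondrion from long polycistronic transcripts of its own genome. Complex II is wholly nuclear encoded. Alveolar macrophages, the resident phagocytes of the airspace, are known for a metabolism that leans on mitochondrial oxidation.

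Transcripts were measured by RNA sequencing in alveolar macrophages of C57BL/6 mouse lungs. All cells overexpressed the transcription factor C/EBPβ, in both groups, and no group without that overexpression was analysed here. The group CEBPb holds 3 libraries of such cells, and the group CEBPb-A holds 3 libraries of such cells treated with an adenovirus carrying A20 (A20-Ad). A20, encoded by Tnfaip3, is a ubiquitin-editing enzyme that restrains NF-κB signalling. The sources used here give neither the age of the mice nor the virus that CEBPb cells received. The labels name replicates without tying them to separate animals or cultures, so a p-value here reflects library-to-library spread that may be technical. Values are FPKM, fragments scaled by transcript length and by the mapped total of the library.

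The labels were checked against the transcripts first. Tnfaip3 stood at 8.76, 17.7 and 19.2 FPKM in CEBPb replicates 1 to 3 and at 7.94, 15.5 and 7.32 FPKM in CEBPb-A replicates 1 to 3 (log2 fold change -0.53, exact two-sided permutation p = 0.2, smallest possible p 0.1). The mean A20 transcript level was lower under the label CEBPb-A, with overlapping groups, and every direction stated here is one between library labels. All 10 alveolar macrophage markers were listed, with summed levels of 26142 to 35773 FPKM in CEBPb and 28369 to 37588 FPKM in CEBPb-A. CEBPb-A replicate 3 stood apart: it scored 25.7 on the first principal component (44.3% of the variance), against -11.7 to -0.095 in the other libraries. Its listed FPKM summed to 313215, against 278907 to 289761 in the others. Alveolar epithelial markers (3 of 8 listed) summed to 61.7 FPKM in it and to 23.9 to 35.2 in the other libraries, and neutrophil markers (3 of 6 listed) to 214 to 263 FPKM in CEBPb and 298 to 317 in CEBPb-A. The part of these markers in the results on the respiratory chain was not tested, and the medians of the gene groups are given with and without CEBPb-A replicate 3.

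Levels spanned a wide range, and the mitochondrial genome dominated them. Its 13 genes made up 4.62%, 6.48% and 3.78% of all listed FPKM in CEBPb replicates 1 to 3, and 4.88%, 6.32% and 4.28% in CEBPb-A. The 89 nuclear genes made up 1.42%, 1.43% and 1.38% in CEBPb and 1.44%, 1.47% and 1.64% in CEBPb-A. The nuclear share of this total was higher in every CEBPb-A library than in any CEBPb library, while the mitochondrial shares of the groups overlapped. The nuclear gap was narrow, at 1.43% in CEBPb replicate 2 against 1.44% in CEBPb-A replicate 1. The listed total includes the mitochondrial genes, so a high mitochondrial share lowers the nuclear one. The mitochondrial share was 6.48% in the first of these libraries and 4.88% in the second. With the mitochondrial genes left out of the total, the order of these libraries reverses and the nuclear shares of the groups overlap. The separation therefore holds only for shares of the listed total. Within a complex, mitochondrially encoded subunits supplied 70.6% to 82.6% of the FPKM of complex I, 71.3% to 77.9% of complex III, 79.2% to 86.0% of complex IV and 56.7% to 78.9% of complex V. In bulk RNA, fewer cells of a type and less RNA per cell cannot be told apart.

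**Figure D1:**
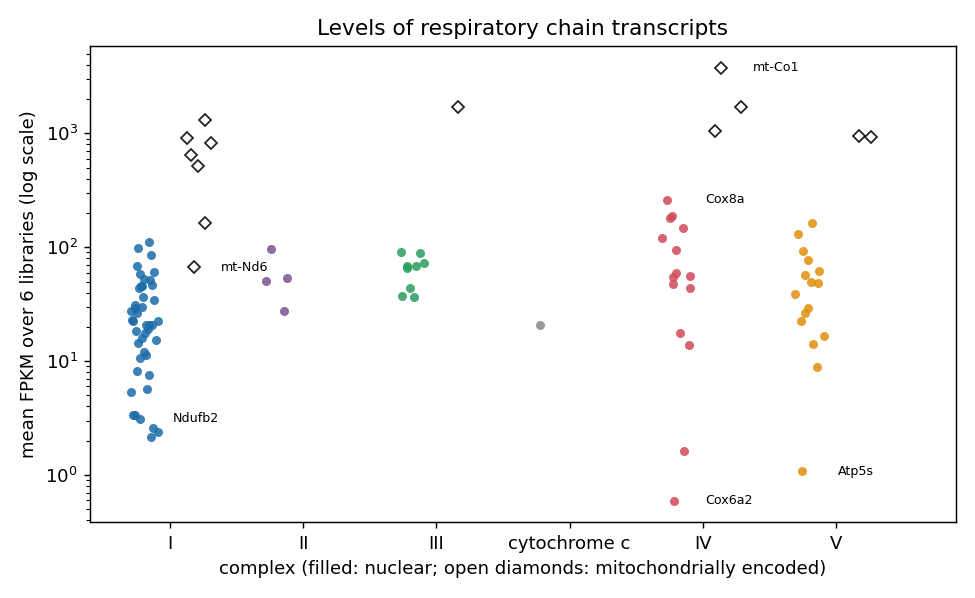
Mean FPKM over the 6 libraries (vertical axis, log scale) of each respiratory chain gene, by complex (horizontal axis), with nuclear genes as filled circles and mitochondrially encoded genes as open diamonds. Apart from mt-Nd6 and mt-Nd3, the mitochondrial messages lie above Cox8a, the nuclear gene with the highest mean.

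No respiratory chain gene passed the test between the groups. Of the 102 genes, 101 had a mean FPKM of at least 1 and were tested among 9617 genes with limma on log2(FPKM + 1), and 0 had a Benjamini-Hochberg adjusted p under 0.05. Over all genes tested, 5 passed, which is 0.052%, of which 2 (0.0208%) were higher and 3 (0.0312%) lower. The lowest adjusted p among the respiratory chain genes was 0.588. At an unadjusted limma p under 0.05, 13 (12.9%) were higher in CEBPb-A, all of them nuclear, and 0 were lower. Of all genes tested 3.76% were higher and 4.42% lower, or 8.18% either way. Most respiratory chain genes are short, and of the 1883 tested genes of at most 1000 bases, 153 (8.13%) were higher and 49 lower at that cut. All values that follow are therefore sizes and orders of the measured levels, not changes that passed a test.

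Most nuclear genes had a higher mean in CEBPb-A. Of the 88 tested, 81 had a fold change above 0, CEBPb-A over CEBPb, beside 46.6% of all genes tested. Their median log2 fold change was 0.17, and that of all genes tested was -0.013. In 26 of the 88 every CEBPb-A library lay above every CEBPb library, and in 1 every CEBPb-A library lay below. Over all genes tested the groups lay apart in this way for 7.89% upward and 8.86% downward. The 13 mitochondrial genes had a median of 0.17 too, with 10 above 0, but in none of them were the groups apart.

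The size of this difference varied between the CEBPb-A libraries. Averaged over the 88 nuclear genes, the deviation from the CEBPb mean was 0.051 on the log2 scale in CEBPb-A replicate 1, 0.11 in replicate 2 and 0.30 in replicate 3. The same averages over all genes tested were -0.0038, 0.00094 and -0.053. Of the 88 genes, 65, 77 and 80 lay above their CEBPb mean in CEBPb-A replicates 1, 2 and 3, beside 41, 48 and 46 in the CEBPb libraries. CEBPb-A replicate 3, the library that stands apart, thus held the largest deviation. Without it the nuclear median was 0.087, with 76 of 88 above 0, and that of all genes was 0.0011. In 28 genes (31.8%) the remaining CEBPb-A libraries lay above all CEBPb libraries, beside 11.2% of all genes, and in 3 they lay below, beside 11% of all genes.

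**Figure D2:**
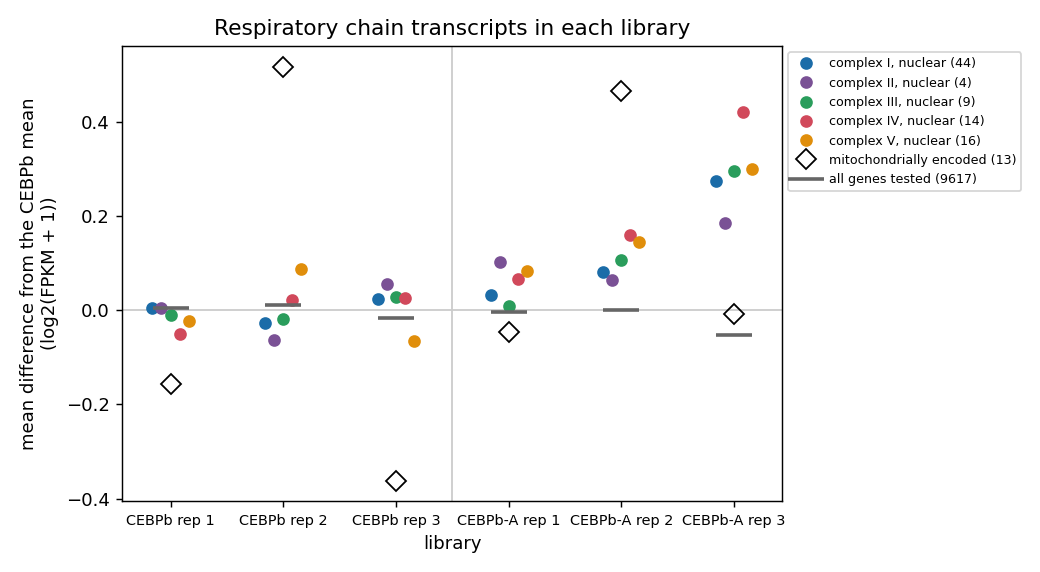
Mean deviation from the CEBPb mean, in log2(FPKM + 1) (vertical axis), in each of the 6 libraries (horizontal axis), with a filled circle for the nuclear genes of each complex, an open diamond for the mitochondrial messages and a dash for all genes tested. The nuclear complexes lie at 0.19 to 0.42 in CEBPb-A replicate 3, and the mitochondrial messages are highest in replicate 2 of both groups.

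Transcript length moved with the fold changes and is given beside them. Across the 9570 tested genes with an annotated length, fold change and length had a Spearman correlation of -0.43, and of -0.26 without CEBPb-A replicate 3. This is a description across genes, which all share the 6 libraries. The length of a gene is the median over its annotated protein-coding transcripts, partial ones included. It can therefore differ from the length of the message present in these cells, and the length classes below are approximate. Nuclear respiratory chain genes are short, with a median transcript length of 710.5 bases against 2087.5 for all genes tested. The 1883 tested genes of at most 1000 bases had a median log2 fold change of 0.073, with 65.9% above 0 and 13.8% with all CEBPb-A libraries above all CEBPb libraries. The 64 nuclear respiratory chain genes in that length class had a median of 0.18, with 61 above 0 and 18 apart upward. Among the 24 longer ones the median was 0.15, with 20 above 0 and 8 apart upward. All 7687 longer genes tested had a median of -0.029, with 41.8% above 0 and 6.44% apart upward. With the length trend taken out of each library, the nuclear median was 0.11, with 77 of 88 above 0 and 18 apart upward (20.5%) and 1 downward, beside 7.8% and 6.94% of all genes. The part of length in the fold changes was otherwise not tested.

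**Figure D3:**
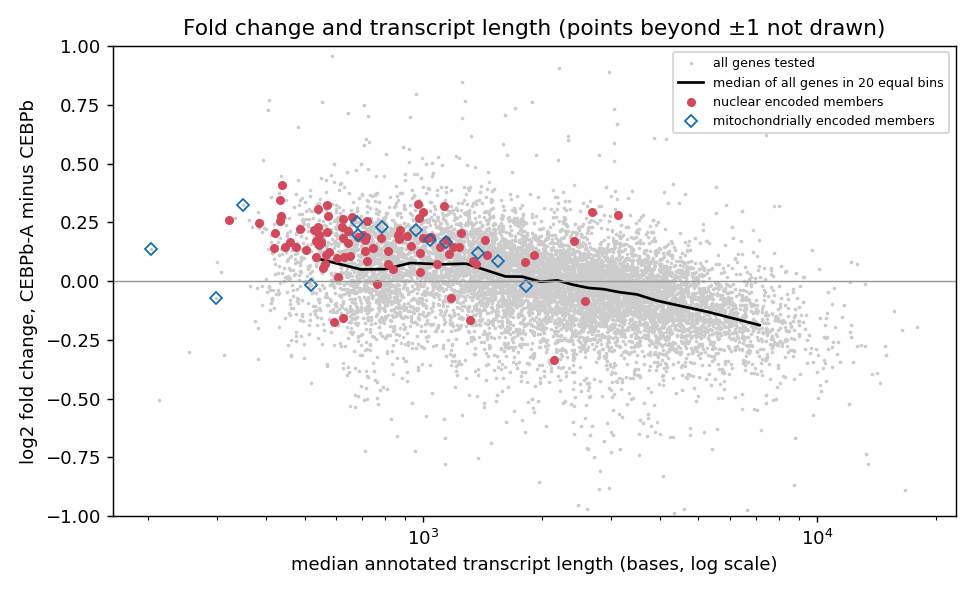
Log2 fold change, CEBPb-A over CEBPb, against annotated transcript length for all genes tested, with the nuclear (filled) and mitochondrially encoded (open diamonds) respiratory chain genes marked and a black line through the medians of length bins; points beyond ±1 are not drawn. Most nuclear members lie at short lengths and above 0, with a median of 0.17 against -0.013 for all genes.

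Complex I takes electrons from NADH. Its 7 nuclear core subunits carry the flavin and iron-sulfur centres or line the path to ubiquinone. All 7 had a fold change above 0, with a median log2 fold change of 0.18 (0.12 without CEBPb-A replicate 3). Of these, 5 were apart upward (71.4%), beside 7.89% of all genes tested and 13.8% of those of at most 1000 bases. Both shares are to be set beside each complex, and counts in short lists rest on few genes. Ndufs8, which binds iron-sulfur clusters, stood at 30.1, 31.4 and 31.3 FPKM in CEBPb and at 35.9, 34.1 and 43.1 FPKM in CEBPb-A. Every CEBPb-A library lay above every CEBPb library. The log2 fold change was 0.27 (SE 0.097, limma with Benjamini-Hochberg adjusted p = 0.588), and 0.17 without CEBPb-A replicate 3. Ndufs8 and the other nuclear complex I genes named here, apart from Ndufa1 and Ndufaf7, were chosen after their values were seen.

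Accessory subunits surround the core of complex I without carrying electrons. Of the 29 tested, 26 had a fold change above 0 and 7 were apart upward (24.1%, beside 7.89% of all genes tested). Their median log2 fold change was 0.16 (0.084 without CEBPb-A replicate 3). For all 44 nuclear complex I genes together it was 0.15 (0.083). Ndufa1, a small membrane subunit needed for assembly, had the highest mean level of the nuclear complex I genes. It stood at 109, 109 and 97.7 FPKM in CEBPb and at 101, 114 and 135 FPKM in CEBPb-A, so the groups overlapped. Ndufs4, whose loss in mice is a model of Leigh syndrome, stood at 14.4, 15.0 and 12.8 FPKM in CEBPb and 16.1, 16.5 and 17.0 FPKM in CEBPb-A. Its groups were apart, and its log2 fold change of 0.22 was 0.20 without CEBPb-A replicate 3. Ndufa5, Ndufb5 and Ndufb3 were the 3 accessory subunits below 0, at log2 fold changes of -0.17, -0.16 and -0.012, and none of them was apart.

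Assembly factors of complex I, which help to build the complex and are absent from the finished enzyme, gave a lower median than its subunits. Their median log2 fold change was 0.086, 6 of 8 lay above 0 and none was apart upward. Without CEBPb-A replicate 3 the median was 0.011, with 5 of 8 above 0, and with the length trend removed it was 0.026. Ndufaf7, a methyltransferase, stood at 3.45, 3.60 and 3.66 FPKM in CEBPb and at 3.27, 2.75 and 3.24 FPKM in CEBPb-A. It was the 1 nuclear gene with every CEBPb-A library below every CEBPb library (log2 fold change -0.16, SE 0.092, limma with Benjamini-Hochberg adjusted p = 0.591). The assembly factors were also among the lowest members, with mean levels of 2.14 to 11.9 FPKM, where the log2(FPKM + 1) scale understates differences. The difference between assembly factors and subunits was not tested.

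Complex II, succinate dehydrogenase, ties the citrate cycle to the chain. All 4 subunits had a fold change above 0, with a median log2 fold change of 0.11 (0.080 without CEBPb-A replicate 3). Of them, 1 was apart upward (25%, beside 7.89% of all genes tested). Sdhd, a membrane anchor with the highest level of the complex, stood at 93.6, 89.0 and 89.5 FPKM in CEBPb and at 96.8, 97.5 and 107 FPKM in CEBPb-A. The CEBPb-A libraries all lay above, by a log2 fold change of 0.15, or 0.099 without CEBPb-A replicate 3. Sdhb, the iron-sulfur subunit, stood at 46.2, 44.4 and 51.9 FPKM in CEBPb and at 54.8, 50.5 and 55.6 FPKM in CEBPb-A. The groups overlapped by CEBPb replicate 3, and the log2 fold change of 0.17 had an SE of 0.084. The flavoprotein Sdha and the anchor Sdhc had log2 fold changes of 0.080 and 0.074.

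Complex III moves electrons from ubiquinol to cytochrome c. Of its 9 nuclear genes, 8 lay above 0 and 2 were apart upward (22.2%, beside 7.89% of all genes tested). Their median log2 fold change was 0.14. That median rested on 1 library: it was 0.016 without CEBPb-A replicate 3. Uqcr10, a small accessory subunit, stood at 84.2, 81.7 and 73.1 FPKM in CEBPb and at 92.4, 90.4 and 125 FPKM in CEBPb-A. Its groups were apart, with a log2 fold change of 0.35 (SE 0.13) that was 0.20 without CEBPb-A replicate 3. Cyc1, the haem-bearing cytochrome c1 (chosen after its values were seen), stood at 61.7, 59.7 and 61.4 FPKM in CEBPb and at 63.6, 72.1 and 73.5 FPKM in CEBPb-A, also apart. Uqcrc2, a core protein of the matrix side, went the other way at 45.0, 45.8 and 43.3 FPKM against 43.4, 44.6 and 39.6 FPKM, with overlapping groups and a log2 fold change of -0.071 (SE 0.074).

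Cytochrome c, the soluble carrier between complexes III and IV that also triggers caspases when released, is encoded by Cycs. It stood at 19.5, 21.1 and 15.9 FPKM in CEBPb and at 22.5, 23.0 and 23.4 FPKM in CEBPb-A. All CEBPb-A libraries lay above all CEBPb libraries, and CEBPb-A replicate 3 was close to the other CEBPb-A libraries. The log2 fold change was 0.28 (SE 0.11, limma with Benjamini-Hochberg adjusted p = 0.588), and 0.27 without CEBPb-A replicate 3. Its annotated length, a median over transcripts, was the highest of the respiratory chain genes at 3123 bases.

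Complex IV, cytochrome c oxidase, reduces oxygen to water. All 14 tested nuclear genes had a fold change above 0, and 5 were apart upward (35.7%, beside 7.89% of all genes tested). Their median log2 fold change was 0.22. This was the highest median of the 5 complexes with all libraries. Without CEBPb-A replicate 3 it was 0.087, and complex V was highest at 0.11. With quantile normalization complex IV was at 0.14, under complex V at 0.16 and complex I at 0.15. The order of the complexes was therefore not stable, and the differences between them were not tested. Cox8a, the most abundant nuclear gene of the chain, stood at 230, 246 and 262 FPKM in CEBPb and at 254, 249 and 329 FPKM in CEBPb-A. Its groups overlapped, and only CEBPb-A replicate 3 lay outside the CEBPb range. Cox7b, a small membrane subunit chosen after its values were seen, stood at 52.3, 52.6 and 45.2 FPKM in CEBPb and at 58.4, 59.5 and 66.8 FPKM in CEBPb-A. Its groups were apart, with a log2 fold change of 0.30, or 0.24 without CEBPb-A replicate 3.

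Several complex IV subunits come as isoforms. Cox6b2, known as the testis form of Cox6b, had the smallest p of all respiratory chain genes. It stood at 12.8, 12.3 and 11.9 FPKM in CEBPb and at 14.7, 14.9 and 15.8 FPKM in CEBPb-A. The groups were apart and tight, with means of 12.3 ± 0.447 and 15.2 ± 0.555 FPKM (SD, n = 3 each) and a log2 fold change of 0.28 (SE 0.074, limma with Benjamini-Hochberg adjusted p = 0.588). The common form Cox6b1 stood at 169, 183 and 171 FPKM in CEBPb and at 181, 187 and 249 FPKM in CEBPb-A. Cox6b2 supplied 6.29% to 7.05% of the summed Cox6b level in CEBPb and 5.96% to 7.55% in CEBPb-A, so the balance of the pair overlapped between the groups.

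The Cox6a pair was led by its general form. Among the Cox7a genes the paralogue Cox7a2l was highest, with 52.6% to 59.3% of the summed Cox7a1, Cox7a2 and Cox7a2l levels over the 6 libraries. Cox6a1, the liver or general form, stood at 170, 159 and 172 FPKM in CEBPb and at 171, 176 and 241 FPKM in CEBPb-A. Its heart and muscle form Cox6a2 was the 1 respiratory chain gene under the filter, at 0.214, 0.383 and 1.08 FPKM in CEBPb and 0.799, 0.370 and 0.721 FPKM in CEBPb-A, and it was not tested. Cox7a1, also a heart and muscle form, made up 0.783% to 2.81% of the summed Cox7a1 and Cox7a2 levels. Cox7a2 stood at 86.0, 90.9 and 78.6 FPKM in CEBPb and at 92.7, 95.4 and 123 FPKM in CEBPb-A, apart upward. Cox7a2l stood at 116, 112 and 118 FPKM in CEBPb and at 119, 125 and 139 FPKM in CEBPb-A, also apart. Cox4i1, the general form of subunit 4, stood at 144, 135 and 144 FPKM in CEBPb and 148, 135 and 188 FPKM in CEBPb-A, with overlapping groups. Ndufa4, now counted with complex IV, stood at 40.3, 46.7 and 37.4 FPKM in CEBPb and 43.8, 44.2 and 51.7 FPKM in CEBPb-A, and its groups overlapped.

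Complex V has a catalytic F1 head and a proton-driven Fo rotor joined by stalks. Of its 16 nuclear genes, 15 lay above 0 and 5 were apart upward (31.25%, beside 7.89% of all genes tested). Their median log2 fold change was 0.18 (0.11 without CEBPb-A replicate 3). All 10 genes of the Fo part and the stalks lay above 0, with a median of 0.19 and 4 apart (40%). Of the 5 F1 genes, 4 lay above 0, with a median of 0.15 and 1 apart (20%). Without CEBPb-A replicate 3 these medians were 0.17 and 0.053. Atp5j2, subunit f of the Fo part, stood at 19.4, 20.1 and 19.7 FPKM in CEBPb and at 23.4, 22.0 and 29.0 FPKM in CEBPb-A. Its groups were apart, with a log2 fold change of 0.31 (SE 0.11) that was 0.19 without CEBPb-A replicate 3. Atp5a1, the alpha subunit of F1 and the most abundant nuclear gene of the complex, was the 1 gene below 0. It stood at 173, 159 and 172 FPKM in CEBPb and at 143, 150 and 184 FPKM in CEBPb-A, with CEBPb-A replicate 3 the highest of all 6 libraries and the other CEBPb-A libraries the lowest.

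The ring of the rotor is built from subunit c, for which Atp5g1, Atp5g2 and Atp5g3 encode the same mature protein behind different import signals. Atp5g3 supplied 50.9% to 60.5% of their summed level, Atp5g2 31.7% to 42.1% and Atp5g1 7.04% to 9.55%, over the 6 libraries. Atp5g3 stood at 59.3, 59.4 and 51.4 FPKM in CEBPb and at 62.5, 66.6 and 74.8 FPKM in CEBPb-A, apart upward. Atp5g1 stood at 7.35, 8.22 and 8.12 FPKM in CEBPb and at 9.13, 8.68 and 12.2 FPKM in CEBPb-A, also apart. Atp5g2 stood at 31.3, 49.1 and 29.6 FPKM in CEBPb and at 36.8, 46.0 and 40.5 FPKM in CEBPb-A, and was high in replicate 2 of both groups. These genes have near-identical copies among pseudogenes, and the sources used here do not state how reads shared with such copies were assigned.

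**Figure D4:**
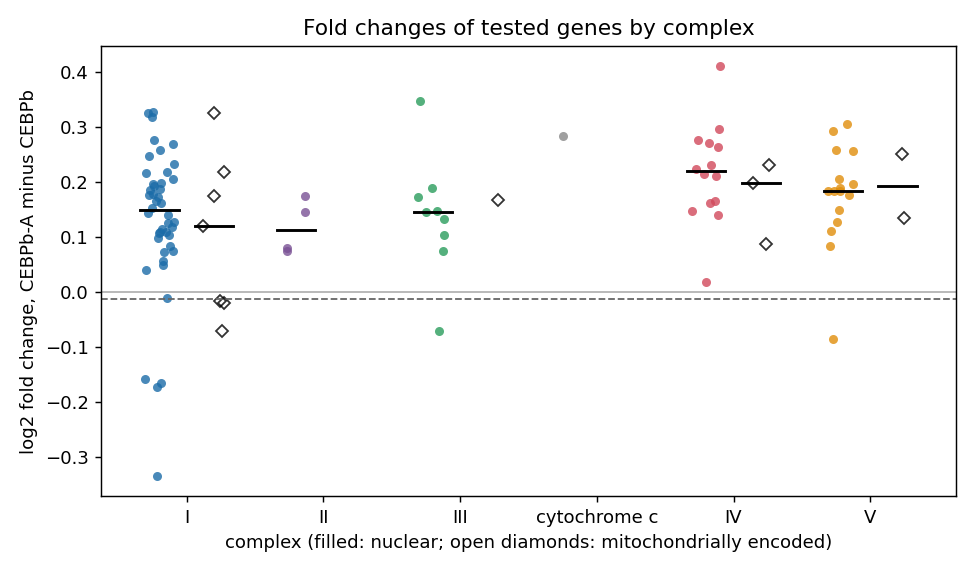
Log2 fold change, CEBPb-A over CEBPb, of each tested respiratory chain gene by complex, with nuclear genes as filled circles, mitochondrially encoded genes as open diamonds, solid bars at the medians and a dashed line at the median of all genes tested. The nuclear medians run from 0.11 in complex II to 0.22 in complex IV, and all 14 nuclear complex IV genes lie above 0.

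Nuclear respiratory genes are known to share promoter elements for NRF1, for ETS factors such as GABP, for YY1 and for estrogen-related receptors. RefSeq promoter windows of the GRCm38.p6 build, from 250 bases before to 50 after the annotated start, were found for 73 of the 89 nuclear genes. Each motif was searched on both strands. The NRF1 motif, whose letters the first capitals in the Cox6a1 promoter show with 1 free base, was present in 19 of the 73 (26.0%), beside 13.0% of the 7600 tested genes with a window. The YY1 motif AAGATGGC was present in 10 (13.7%, beside 6.17%), the ETS motif CCGGAAG in 18 (24.7%, beside 22.7%) and the C/EBP motif TTGCNNAA in 9 (12.3%, beside 10.2%). The estrogen-related receptor motif TCAAGGTCA was present in 2, Atp5g3 and Sdhd, beside 0.342% of tested genes. Matches of different motifs shared no bases in these windows. A match describes letters and is no evidence of binding.

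Promoters of Atp5g3, Sdhd and Cox6a1 show these elements in genes whose levels are given here. Each is the 250 bases before the start on the minus strand, in GRCm38.p6, at chr2:73911327-73911576 for Atp5g3, chr9:50603850-50604099 for Sdhd and chr5:115348959-115349208 for Cox6a1. Capitals mark motif matches, and the further matches of Atp5g3 (NRF1) and Sdhd (estrogen-related receptor) are not wholly within the bases printed. In Atp5g3 they mark the estrogen-related receptor motif, read on the opposite strand. In Sdhd they mark the NRF1 and then the ETS motif, both read on the opposite strand. In Cox6a1, a gene with overlapping groups, they mark a pair of NRF1 motifs, the C/EBP motif and the ETS motif, in that order.
Atp5g3: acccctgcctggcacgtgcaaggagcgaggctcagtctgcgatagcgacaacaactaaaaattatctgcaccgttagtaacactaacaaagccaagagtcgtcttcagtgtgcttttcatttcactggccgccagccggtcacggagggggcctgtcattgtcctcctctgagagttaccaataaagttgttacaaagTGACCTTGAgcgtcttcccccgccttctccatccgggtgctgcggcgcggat
Sdhd: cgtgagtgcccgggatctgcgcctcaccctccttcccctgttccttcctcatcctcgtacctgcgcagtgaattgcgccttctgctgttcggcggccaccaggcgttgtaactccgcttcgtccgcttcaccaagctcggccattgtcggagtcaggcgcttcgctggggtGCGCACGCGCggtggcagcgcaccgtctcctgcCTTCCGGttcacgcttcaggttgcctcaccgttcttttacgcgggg
Cox6a1: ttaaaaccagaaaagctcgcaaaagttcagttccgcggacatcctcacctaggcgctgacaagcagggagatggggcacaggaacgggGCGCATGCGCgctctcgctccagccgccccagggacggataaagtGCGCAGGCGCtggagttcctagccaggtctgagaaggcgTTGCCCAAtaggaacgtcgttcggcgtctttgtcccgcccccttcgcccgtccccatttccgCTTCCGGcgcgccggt

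The 13 mitochondrial genes did not separate by group when the replicate numbers were set aside. Averaged over them, the deviation from the CEBPb mean on the log2 scale was -0.16, 0.52 and -0.36 in CEBPb replicates 1 to 3 and -0.045, 0.47 and -0.0072 in CEBPb-A replicates 1 to 3. Replicate 2 was the highest library of each group. The nuclear minus mitochondrial difference in mean log2(FPKM + 1) was -4.43, -5.09 and -4.21 in CEBPb and -4.48, -4.93 and -4.27 in CEBPb-A. The groups overlapped throughout, so a shift of one genome's transcripts against the other was not detectable with these libraries. The spread of the mitochondrial genes between libraries of 1 group exceeded the difference between groups. Compared by replicate number, mt-Nd1, mt-Co2, mt-Co3, mt-Cytb and mt-Atp6 were higher in CEBPb-A at every number. Each of the others was lower in CEBPb-A at replicate 2. With the number as a block in limma, the adjusted p was 0.372 for mt-Nd1, mt-Co2 and mt-Cytb. Many nuclear respiratory chain genes, Ndufs8 and Cox6b2 among them, had the same value, so it does not set these mitochondrial genes apart.

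The mitochondrial median of 0.17 depended on single libraries and on the scaling. It was -0.066 without CEBPb replicate 3, -0.00087 without CEBPb-A replicate 2 and 0.34 without CEBPb replicate 2. Without CEBPb-A replicate 3 it was 0.21. Quantile normalization gave 0.043, beside a nuclear median of 0.14, and an equal total without mt- genes gave 0.10, beside 0.11. By complex, the 7 mitochondrial genes of complex I had a median log2 fold change of 0.12 with 4 above 0. For mt-Cytb of complex III it was 0.17, the 3 genes of complex IV had a median of 0.20 and the 2 of complex V had a median of 0.19. Without CEBPb-A replicate 3 these values were 0.25, 0.21, 0.21 and 0.18.

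mt-Co1, the catalytic subunit of complex IV that holds the oxygen-reducing centre, was the most abundant respiratory chain message. It stood at 3603, 4389.9 and 3070.4 FPKM in CEBPb and at 3837, 4377 and 3465 FPKM in CEBPb-A. mt-Co2, which takes electrons from cytochrome c, stood at 1631, 1806 and 1390.3 FPKM in CEBPb and at 1769, 1941 and 1799.8 FPKM in CEBPb-A. Both were highest in replicate 2 of each group, and the groups overlapped. mt-Co3, the third core subunit, stood at 1049, 1252 and 665 FPKM in CEBPb and at 1132, 1316 and 948 FPKM in CEBPb-A. mt-Cytb, the cytochrome b of complex III, stood at 1551, 1891 and 1413 FPKM in CEBPb and at 1719.9, 2015 and 1694 FPKM in CEBPb-A. The ratio of mt-Co1 to the nuclear partner Cox4i1 was 25.0, 32.5 and 21.3 in CEBPb and 25.9, 32.5 and 18.4 in CEBPb-A, with no separation of the groups.

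Subunits of complex I from the mitochondrial genome form its proton-pumping membrane arm. mt-Nd1, next to the ubiquinone site, stood at 1175, 1517 and 941 FPKM in CEBPb and at 1290.2, 1609 and 1272 FPKM in CEBPb-A. mt-Nd2, a pump subunit, stood at 558, 903 and 405 FPKM in CEBPb and at 612, 862 and 557 FPKM in CEBPb-A. In both genes CEBPb replicate 3 was the lowest of the 6 libraries. mt-Nd3, a small subunit, stood at 146, 228 and 76.9 FPKM in CEBPb and at 163, 214 and 145 FPKM in CEBPb-A, and mt-Nd4 at 809, 1155 and 658 FPKM and at 886, 1148 and 774 FPKM. mt-Nd4l stood at 481, 712 and 395 FPKM in CEBPb and at 528, 659 and 336 FPKM in CEBPb-A. mt-Nd5 stood at 755, 1062 and 678 FPKM in CEBPb and at 823, 1032 and 612 FPKM in CEBPb-A. These subunits also peaked in replicate 2 of both groups. mt-Nd6, the only one of the 13 on the opposite strand, stood at 60.7, 89.1 and 52.3 FPKM in CEBPb and at 54.3, 59.2 and 85.1 FPKM in CEBPb-A. Within CEBPb-A it was highest in replicate 3, unlike the other 12 genes.

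**Figure D5:**
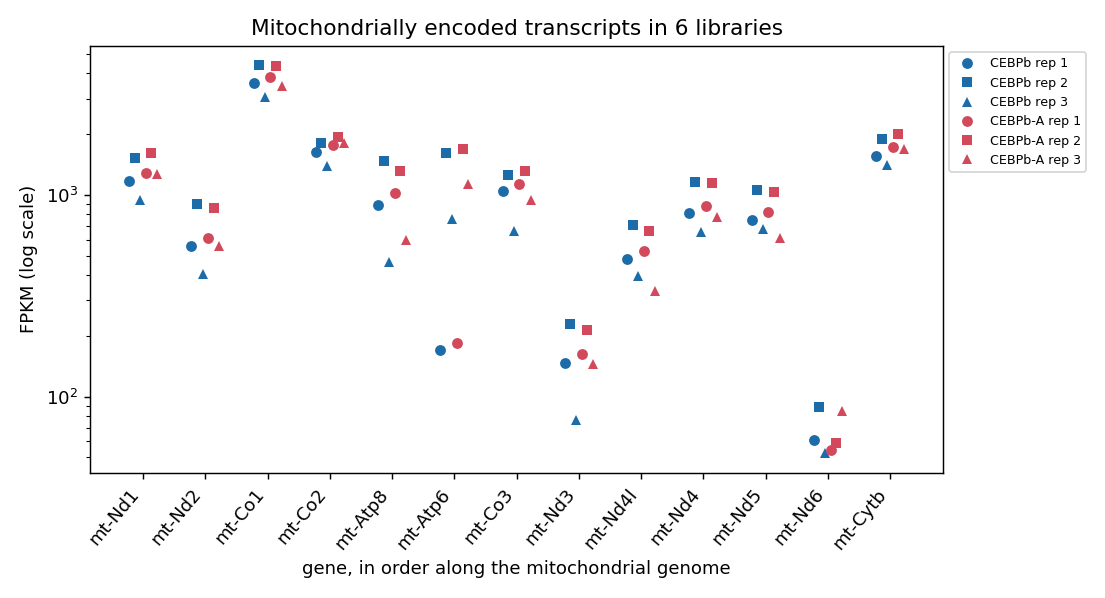
FPKM (vertical axis, log scale) of each of the 13 mitochondrially encoded genes in the 6 libraries, with CEBPb in blue, CEBPb-A in red and a marker shape for each replicate number. Replicate 2 of both groups is highest for most genes, and mt-Atp6 stands at 170 and 184 FPKM in replicate 1 of the groups against 759 to 1681.5 elsewhere.

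mt-Atp6 and mt-Atp8, membrane subunits of the ATP synthase, are read from one message with overlapping frames, and among the 13 they varied most between libraries. mt-Atp6 stood at 170, 1612 and 759 FPKM in CEBPb and at 184, 1681.5 and 1132 FPKM in CEBPb-A, a 9.91-fold range over the libraries. The low libraries were replicate 1 of both groups. mt-Atp8 stood at 886, 1470.4 and 464 FPKM in CEBPb and at 1021, 1309 and 599 FPKM in CEBPb-A, and its order was another one. mt-Atp6 made up 16.1%, 52.3% and 62.1% of their sum in CEBPb and 15.2%, 56.2% and 65.4% in CEBPb-A. The balance of the pair thus followed the replicate number and overlapped between groups. Excluding both, the nuclear minus mitochondrial difference was -4.56, -4.98 and -4.19 in CEBPb and -4.60, -4.82 and -4.23 in CEBPb-A.

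The sequences show the bases that these neighbours share. In GRCm38, mt-Atp8 lies at chrM:7766-7969 on the plus strand and is 204 bases long, and its last 43 bases, in capitals, are also the first bases of mt-Atp6. mt-Nd4l ends in 7 bases, in capitals, that open mt-Nd4. The first 60 bases of mt-Atp6 (chrM:7927-7986) and the last 40 of mt-Nd4l (chrM:10134-10173) are printed, both plus strand.
mt-Atp8: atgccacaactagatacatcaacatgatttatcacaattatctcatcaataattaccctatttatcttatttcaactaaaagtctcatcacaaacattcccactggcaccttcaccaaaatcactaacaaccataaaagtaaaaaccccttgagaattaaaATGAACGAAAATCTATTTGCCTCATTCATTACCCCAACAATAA
mt-Atp6, first 60 bases: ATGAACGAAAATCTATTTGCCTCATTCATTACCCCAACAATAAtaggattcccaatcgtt
mt-Nd4l, last 40 bases: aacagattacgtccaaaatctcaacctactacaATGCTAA

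The overlap takes up 43 of the 204 bases of mt-Atp8 and 43 of the 681 bases of mt-Atp6. Reads that lie in it or reach into it could be counted for either gene, and the sources used here do not state how they were assigned. The values of this pair are uncertain to an extent that is not known, which can exceed the share of bases in the overlap. The part of the overlap in their spread between libraries was not tested. mt-Nd5 and mt-Nd6 share 14 bases on opposite strands (chrM:13552-13565). The library kit keeps strand, but no source used here states whether the counting used it, so mt-Nd6 is uncertain too. Nuclear copies of mitochondrial sequence could take reads from any of the 13.

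Genes around the chain were examined by lists written from textbook knowledge, and 0 genes passed limma's test in any of them. Their counts of genes apart are to be set beside the 7.89% upward and 8.86% downward of all genes tested, and the smaller ones are near these shares. Of the genes that assemble complexes II to V, 29 of 31 were tested, 20 lay above 0, 6 were apart upward and 2 downward, and the median log2 fold change was 0.12 (0.079 without CEBPb-A replicate 3). Tmem70, which helps to assemble the ATP synthase, stood at 13.0, 13.1 and 11.9 FPKM in CEBPb and 14.4, 15.8 and 13.7 FPKM in CEBPb-A. Sco2, a copper chaperone of complex IV, stood at 12.1, 11.5 and 12.5 FPKM in CEBPb and 13.7, 12.8 and 16.4 FPKM in CEBPb-A, and both were apart. Of the complex I assembly genes outside the Nduf names, 8 of 9 were tested, 6 lay above 0 and none was apart, with a median of 0.025 (0.039 without CEBPb-A replicate 3). Dmac1 had a log2 fold change of 0.14 and Nubpl, which delivers iron-sulfur clusters, one of -0.10.

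The citrate cycle feeds the chain. All 13 of its genes were tested, 11 lay above 0, 4 were apart upward and 1 downward, with a median log2 fold change of 0.067. Without CEBPb-A replicate 3 that median was 0.029, with 9 of 13 above 0. Idh3a, the catalytic subunit of NAD-dependent isocitrate dehydrogenase, stood at 7.05, 7.69 and 6.60 FPKM in CEBPb and 8.60, 8.67 and 8.23 FPKM in CEBPb-A. Its partner Idh3g had a log2 fold change of 0.24 (SE 0.10), and both were apart. Among the carriers, uncoupling proteins and the ATP synthase inhibitor, 9 of 11 were tested, all 9 lay above 0 and 4 were apart upward, with a median of 0.087 (0.068 without that library). Slc25a5, an ADP/ATP carrier, stood at 220, 229 and 197 FPKM in CEBPb and 236, 248 and 259 FPKM in CEBPb-A, apart upward. Slc25a4, another such carrier, had a log2 fold change of 0.12 (SE 0.070).

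Lists on the making of mitochondria and of their RNA sat near the median of all genes. Of the genes for mitochondrial transcription and RNA care, 20 of 22 were tested, with 8 above 0, 1 apart each way and a median log2 fold change of -0.016 (-0.012 without CEBPb-A replicate 3). Hsd17b10, part of the complex that cuts mitochondrial tRNAs out of their precursors, stood at 19.2, 19.4 and 21.6 FPKM in CEBPb and 24.6, 24.2 and 28.5 FPKM in CEBPb-A, apart upward. Fastkd5, needed for processing the messages that no tRNA flanks, stood at 7.16, 6.63 and 6.24 FPKM in CEBPb and 5.72, 5.75 and 5.51 FPKM in CEBPb-A, apart downward. Of the genes for mitochondrial DNA replication, 8 of 9 were tested, with 4 above 0, 1 apart upward and a median of -0.0041 (0.011 without CEBPb-A replicate 3). Ssbp1, the single-strand DNA binding protein, stood at 1.98, 2.07 and 1.93 FPKM in CEBPb and 2.23, 2.22 and 2.34 FPKM in CEBPb-A, apart upward, and Mgme1, a nuclease, had a log2 fold change of 0.12.

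Of the regulators of mitochondrial biogenesis, 7 of 9 were tested, with 2 above 0, 0 apart upward, 1 apart downward and a median of -0.046 (-0.029 without CEBPb-A replicate 3). Gabpb1, a subunit of GABP, and the coactivator Ppargc1b both had a log2 fold change of -0.13. Other routes of electrons into ubiquinone gave a median of -0.041 (-0.061 without CEBPb-A replicate 3), with 15 of 18 genes tested, 6 above 0, 1 apart upward and 2 downward. Gpd2, the mitochondrial glycerol-3-phosphate dehydrogenase, had the smallest p in these lists. It stood at 21.9, 21.6 and 20.8 FPKM in CEBPb and at 16.9, 15.7 and 12.4 FPKM in CEBPb-A, so all CEBPb-A libraries lay below. The log2 fold change was -0.50 (SE 0.11, limma with Benjamini-Hochberg adjusted p = 0.588). Coq8a, which acts in ubiquinone synthesis, had -0.25.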

How the data were processed

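Stranded libraries were made from 1 µg of total RNA, per the labels' protocols. The reads were mapped to GRCm38, per the submitters' processing notes. The RNA selection step, aligner, quantifier and annotation were not given in the sources used here. Per the file headers, the authors deposited 1 table of FPKM values for 6 libraries, all of protein-coding genes. The header announces 9 value columns and the table used here has 6. Depth is unknown: low values showed no whole-read steps (highest periodicity 0.2195 to 0.2409 over 800 genes per library, where 1 means whole reads), so no counting interval is given, and precision rests on 3 libraries per group.

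The 9617 genes whose FPKM averaged at least 1 were fitted with limma 3.58.1 (R 4.3.3), using an intensity trend on log2(FPKM + 1) and the groups alone as the design (CEBPb-A minus CEBPb). Two-sided p-values received the Benjamini-Hochberg adjustment over all genes tested, with a threshold of 0.05. The script was tested on simulated data. Medians and counts of lists carry no test. Transcript lengths and mitochondrial sequences came from GENCODE release M21, whose spans equal those of 88 of the 102 genes, and promoters from RefSeq (GRCm38.p6). The length of a gene was the median over its annotated protein-coding transcripts. Promoter entries were matched by symbol.

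The genes, lists, markers, motifs and tests were chosen with earlier results of these data known. Named in full were every mitochondrially encoded gene, the highest nuclear gene and the smallest p each way per complex, isoform families, genes under the filter, Tnfaip3, Cebpb, and the 2 smallest p per pathway list, except 1 gene that is not reported here. Alternatives were other pseudocounts, filters and scalings, removal of the length trend, limma without the trend, the replicate number as a block and each library left out. Same-numbered libraries correlated at 0.0993, 0.25 and 0.26 in their deviations from the group means. Cebpb itself stood at 411 ± 70.5 FPKM in CEBPb-A and 429 ± 66.6 in CEBPb (SD, n = 3 each).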

Additional observations from a re-analysis of the deposited data

How the results depend on the processing

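Under all 17 alternatives 0 respiratory chain genes passed the threshold, and the lowest adjusted p of any of them was 0.372 (limma). The number of all genes past it was 5 as reported, 0 with a mean FPKM of at least 5, 2 with quantile normalization, 2 with an equal total without mt- genes, and 1 to 9 with each library left out in turn. With the replicate number as a block it was 1. The replicate numbers were not taken as pairing, since 1 of the 3 correlations, at 0.0993, was under 0.1. That cut is arbitrary, and every library correlated best with the library of its own number, a hint from the data. The balance of mt-Atp6 and mt-Atp8 also followed the number, so unpaired comparisons may miss differences within a number. The nuclear median log2 fold change stayed above 0, from 0.087 to 0.23 with a library left out and at 0.11 with an equal total without mt- genes. Under that scaling the complex II median was 0.050. The complex III median ran from 0.016 to 0.24 with a library left out. The count of nuclear genes apart upward, whose alternatives were chosen after seeing the data, was 16 with an equal total without mt- genes (18.2%, beside 4.32% of all genes), 18 with the length trend removed (20.5%, beside 7.8%) and 28 to 44 with a library left out (31.8% to 50%, beside 11.2% to 15.8%), where fewer libraries separate more easily. The cause of the other shifts was not tested.

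Directions of single mitochondrial messages were not stable. With median-of-ratios scaling mt-Nd5 stood at 6.4e-05 and mt-Nd6 at 0.0040. With each library left out in turn, the log2 fold change ran from -0.65 to 1.22 for mt-Atp6, -0.30 to 0.53 for mt-Atp8, -0.037 to 0.22 for mt-Co1, -0.031 to 0.43 for mt-Co3, -0.094 to 0.48 for mt-Nd2, -0.088 to 0.69 for mt-Nd3, -0.066 to 0.34 for mt-Nd4, -0.29 to 0.20 for mt-Nd4l, -0.20 to 0.18 for mt-Nd5, -0.21 to 0.20 for mt-Nd6 and -0.20 to 0.051 for Cebpb. The nuclear minus mitochondrial difference ran from -0.24 to 0.20. Unknown depth and 3 libraries per group limit all of these values.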
